A study of Mus musculus with 24 samples.

Results

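The genes described here encode 10 RNA-binding proteins that direct alternative splicing and mRNA fate in neurons and neural progenitors. They are Elavl2, Elavl3, Elavl4, Nova1, Nova2, Rbfox1, Rbfox2, Ptbp1, Ptbp2 and Msi1. They were taken as a list of named genes, with no threshold on their values, and all 10 were found among the 23306 genes of the deposited table and passed the filter on low values. The study measured RNA from the dentate gyrus of female C57BL6 mice that carried a tamoxifen-inducible Cre driven by Nestin (Nes-CreERT2) and 1 RiboTag copy of Rpl22 that gains an HA tag after recombination. All mice, sedentary ones included, received tamoxifen at 9 to 11 weeks of age, daily for 5 days at 160 mg per kg. Running mice had a free wheel and sedentary mice a blocked wheel, for 11, 18 or 27 days. Each activity and day has 2 libraries from the ribosome precipitate (IP), labelled as immature neurons, and 2 from the dentate gyrus (input), which makes 12 groups and 24 libraries. Each library name ends in a letter (a or b for 11 days, c or d for 18, e or f for 27), and the same letters recur in both fractions and activities. What the letters mark is not stated, so counts over libraries of the same letter are descriptions and not counts of pairs. The tag follows every cell recombined at the time of tamoxifen and all of its descendants, so the IP is not limited to neurons of 1 stage.

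Neural cells change their splicing programme as they mature. Ptbp1 is a splicing repressor of progenitors and glia. It lowers its paralog Ptbp2 by promoting the skipping of an exon, which sends the Ptbp2 transcript to decay, and Ptbp2 takes over in young neurons before it too declines. The microRNA miR-124 lowers Ptbp1 in neurons, and the repressor REST holds neuronal genes down in other cells. Elavl2, Elavl3 and Elavl4 (the neuronal Hu proteins) bind AU-rich and U-rich RNA and stabilise neuronal transcripts. Nova1 and Nova2 control exons of synaptic genes, Rbfox1 and Rbfox2 regulate neuronal exons through GCAUG elements, and Msi1 is a translational regulator of neural stem cells. Gene-level values do not show exon inclusion or isoforms, so no splicing was measured.

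The windows around the transcription starts of 4 members are shown because these genes carry the results: Ptbp1 and Ptbp2 for their ratio, and Elavl2 and Elavl4 because they fell together in the IP. RefSeq on GRCm38.p6 gave a window for 8 of the 10 members, from 250 bases before to 50 bases after a start. For Elavl2, with 6 starts in the table, and Elavl4, with 4, the start listed at the top was used. Capitals mark the GC box GGGCGG and the E-box CAGCTG on either strand, and overlapping matches were all counted. The windows lie at chr10:79854182-79854481 (plus strand) for Ptbp1, chr3:119783339-119783638 (minus strand) for Ptbp2, chr4:91399935-91400234 (minus strand) for Elavl2 and chr4:110351862-110352161 (minus strand) for Elavl4.
Ptbp1: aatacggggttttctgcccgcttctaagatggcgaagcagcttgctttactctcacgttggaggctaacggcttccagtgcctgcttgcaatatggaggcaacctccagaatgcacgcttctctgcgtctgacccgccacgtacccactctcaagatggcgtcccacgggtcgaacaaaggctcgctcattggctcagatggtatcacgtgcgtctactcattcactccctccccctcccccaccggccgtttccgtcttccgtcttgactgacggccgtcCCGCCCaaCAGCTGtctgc
Ptbp2: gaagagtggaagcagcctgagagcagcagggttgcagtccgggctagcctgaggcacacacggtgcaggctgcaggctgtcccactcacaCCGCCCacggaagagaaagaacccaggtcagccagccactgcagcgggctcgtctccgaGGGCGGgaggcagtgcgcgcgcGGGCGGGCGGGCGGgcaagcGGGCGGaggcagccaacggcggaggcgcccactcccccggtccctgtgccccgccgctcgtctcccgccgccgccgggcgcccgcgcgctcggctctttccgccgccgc
Elavl2: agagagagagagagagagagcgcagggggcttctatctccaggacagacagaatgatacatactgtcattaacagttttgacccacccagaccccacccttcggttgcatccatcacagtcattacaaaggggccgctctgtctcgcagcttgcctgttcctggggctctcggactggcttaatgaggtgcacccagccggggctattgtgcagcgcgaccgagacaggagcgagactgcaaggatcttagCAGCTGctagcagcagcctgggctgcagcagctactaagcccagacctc
Elavl4: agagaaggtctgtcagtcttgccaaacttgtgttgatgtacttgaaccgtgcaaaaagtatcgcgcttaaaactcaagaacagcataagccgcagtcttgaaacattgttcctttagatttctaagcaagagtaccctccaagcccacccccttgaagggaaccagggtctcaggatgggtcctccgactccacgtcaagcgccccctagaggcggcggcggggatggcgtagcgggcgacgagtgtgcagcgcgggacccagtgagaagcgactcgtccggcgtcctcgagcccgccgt
The Ptbp2 window held 6 matches to GGGCGG and 36 CpG, and 6.23% of all 32851 windows had as many CpG. The Ptbp1 window held 1 match to GGGCGG, 1 to CAGCTG and 22 CpG. The Elavl2 window held 1 CAGCTG and 10 CpG, and the Elavl4 window held neither motif and 23 CpG. Among all windows the median was 7 CpG, 35.7% held GGGCGG and 16.3% held CAGCTG. These matches describe the letters only.

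Markers placed the IP in the neurogenic lineage but not in 1 cell type. All 11 neural stem cell markers, all 15 cell cycle markers and all 9 progenitor and neuroblast markers were higher in the IP than in the input (limma, adjusted p under 0.05), as were 10 of 11 immature neuron markers. The summed stem cell markers ranged from 707 to 1354 TPM in IP libraries and from 358 to 524 TPM in input libraries. The summed astrocyte markers were also present in the IP, at 2824 to 5532 TPM against 2332 to 3403 TPM in the input, with 5 of 10 higher and 3 lower. All 10 microglial markers were lower in the IP (98.8 to 221 TPM summed, against 274.5 to 437 TPM). Oligodendrocyte lineage markers summed to 911 to 1390 TPM in the IP and 524 to 830 TPM in the input, although 9 of 11 were lower in the IP and 1 was higher. All 9 interneuron markers were lower. So were 8 of 11 mature granule neuron, 6 of 10 vascular and 5 of 6 pyramidal and mossy neuron markers, with 1 higher in each list. Of all these markers only Spink8, a pyramidal neuron marker, was listed at 0 in an IP library. Olfactory receptor genes, used as a background level, averaged 12.3 ± 3.43 TPM in the day 18 input (SD, n = 4), against 1.99 ± 1.61 at day 11 and 4.24 ± 1.27 at day 27. The day 18 input libraries thus stood apart from the other input libraries.

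**Figure D1:**
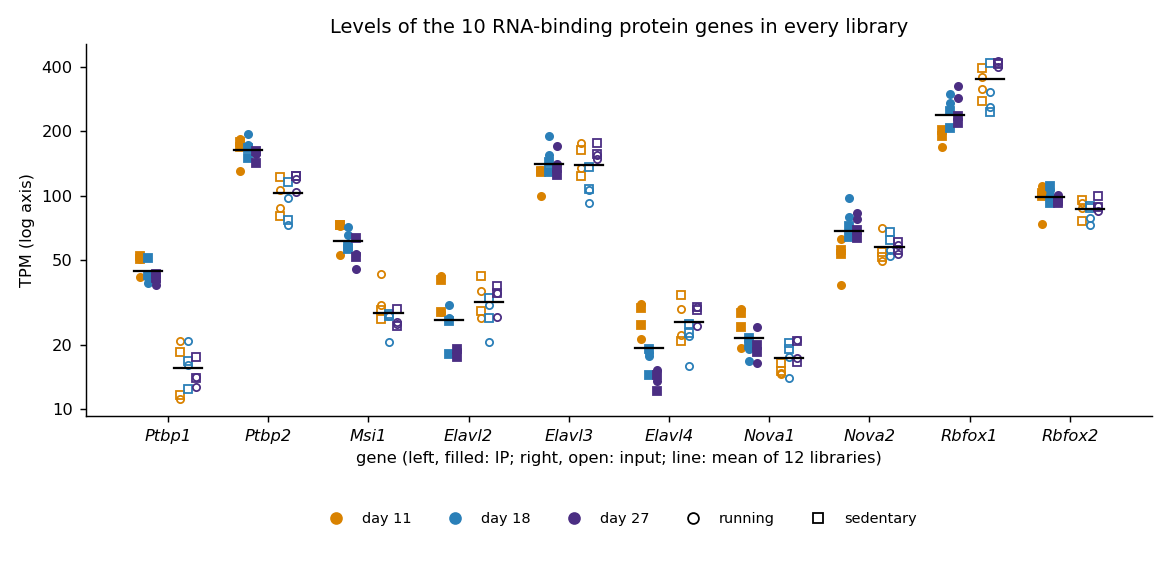
TPM (log axis) of the 10 genes in every library, with IP libraries filled at the left of each gene and input libraries open at the right; colours give the day, shapes the activity and bars the mean of 12 libraries. Ptbp1, Ptbp2 and Msi1 do not overlap between IP and input, whereas the other 7 genes do. The share of all genes without overlap is not given.

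TPM is scaled by transcript length, so levels can be set side by side. In the IP, Rbfox1 was the most abundant of the 10 at 238 ± 48.7 TPM (SD, n = 12 libraries), followed by Ptbp2 (164 ± 17.9 TPM), Elavl3 (140.3 ± 23.4 TPM), Rbfox2 (98.3 ± 10.1 TPM) and Nova2 (68.0 ± 15.6 TPM). Msi1 (61.2 ± 9.56 TPM), Ptbp1 (44.2 ± 5.22 TPM), Elavl2 (26.3 ± 8.36 TPM), Nova1 (21.5 ± 4.18 TPM) and Elavl4 (19.3 ± 6.24 TPM) completed the order. Neighbours in this order overlapped in range throughout. Rbfox1 exceeded Ptbp2 in 12 of 12 IP libraries, but Nova2 exceeded Msi1 in only 8, Elavl2 exceeded Nova1 in 8 and Nova1 exceeded Elavl4 in 7. In the input, Rbfox1 also led, at 354 ± 68.3 TPM, and Ptbp1 came last, at 15.6 ± 3.42 TPM.

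Comparison of the IP with the input asked which members were more or less abundant on tagged ribosomes than in the tissue. Of the 10 members, 6 were higher in the IP and 3 were lower (limma over all 24 libraries, adjusted p under 0.05), while 41.4% of the 19507 genes tested were higher and 28.5% were lower. Calls were so common in this comparison that the members' counts are read only together with the sizes, which differed widely. The members' median difference was 0.19 on the log2(TPM + 1) scale, against 0.12 for all genes. This scale understates the change of low genes, and in bulk RNA more cells of a type and more RNA per cell cannot be told apart.

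Ptbp1 had the largest difference of the 10. Its level ranged from 38.1 to 52.2 TPM in the 12 IP libraries (median 42.2 TPM) and from 11.1 to 20.9 TPM in the 12 input libraries (median 15.1 TPM). The groups did not overlap, so the IP library was necessarily higher than the input library of the same name in 12 of 12 cases. The log2 difference was 1.47 ± 0.10 (SE; limma adjusted p = 1.2e-10), and the mean TPM was 2.84-fold higher. Msi1 ranged from 45.6 to 72.6 TPM in the IP (median 60.7 TPM) and from 20.7 to 43.2 TPM in the input (median 27.4 TPM). It was 1.10 ± 0.08 higher on the log2 scale (limma adjusted p = 1.8e-10). Here too the groups did not overlap. Ptbp2 ranged from 130.2 to 195 TPM in the IP (median 164 TPM) and from 72.8 to 124 TPM in the input (median 105 TPM). It was 0.69 ± 0.09 higher (adjusted p = 1.3e-06) with no overlap. The share of all genes without overlap is not given, so the lack of overlap only describes these 3 genes. Under a median-of-ratios scaling, which moved the median of all genes from 0.12 to -0.12, these 3 genes were still higher in the IP, by 1.20 for Ptbp1, 0.82 for Msi1 and 0.41 for Ptbp2. Stem cell and cell cycle markers moved with them, and their part in these differences was not tested.

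The smaller differences depended on the scaling and, for 2 of them, on day 18. Nova1 was 0.28 ± 0.09 higher in the IP (adjusted p = 0.0059), Nova2 0.21 ± 0.08 higher (adjusted p = 0.026) and Rbfox2 0.17 ± 0.07 higher (adjusted p = 0.034). The IP and input ranges of each overlapped. Under median-of-ratios scaling Nova1 stood at 0.02, Nova2 at -0.07 and Rbfox2 at -0.11, and none of the 3 passed. Without the day 18 libraries Nova2 was 0.12 (adjusted p = 0.35) and Rbfox2 0.098 (adjusted p = 0.37), which left 4 members higher. Leaving out single libraries ended the Nova2 call for 3 of 24 libraries (running b of day 11 in either fraction and running c of day 18 in the IP) and the Rbfox2 call for 10 of 24, with adjusted p up to 0.058 and 0.076. Elavl3 did not pass, at 140.3 ± 23.4 and 140.0 ± 28.0 TPM in IP and input (difference 0.01 ± 0.08, adjusted p = 0.89), with a 95% interval of -0.15 to 0.18. It was -0.27 under the other scaling (adjusted p = 0.0059). The 3 genes lower in the IP kept that direction under both scalings. Rbfox1 ranged from 169.9 to 327 TPM in the IP and from 247 to 428 TPM in the input. Its log2 difference was -0.57 ± 0.09 (adjusted p = 1.0e-05). It was lower in the IP library than in the input library of the same name in 11 of 12 cases. Elavl4 differed by -0.42 ± 0.10 (adjusted p = 0.00073) and Elavl2 by -0.30 ± 0.10 (adjusted p = 0.013).

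**Figure D2:**
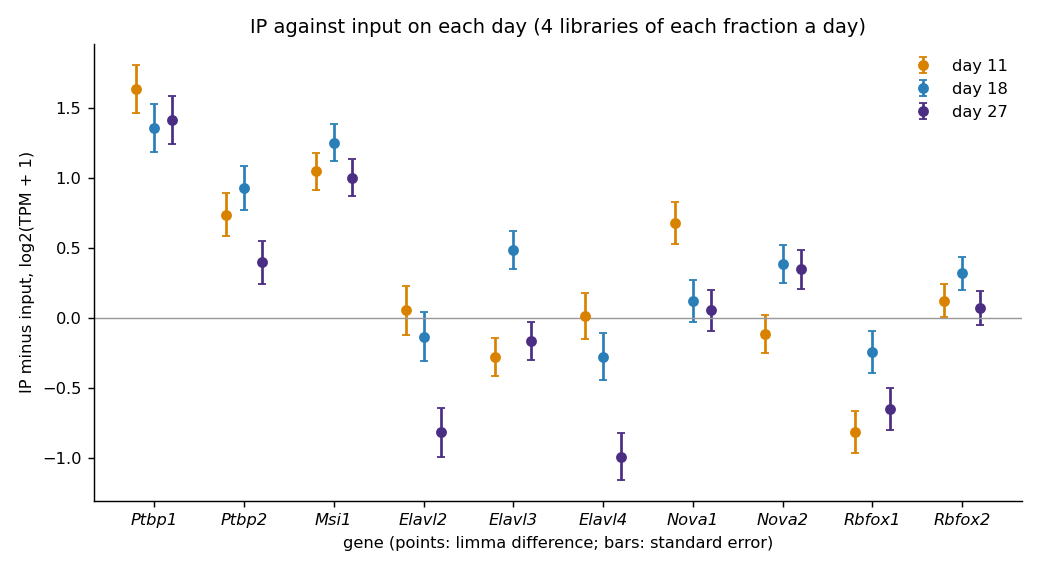
IP minus input on the log2(TPM + 1) scale for each gene on days 11, 18 and 27 (4 libraries of each fraction a day); points are limma differences and bars their standard errors. Ptbp1, Ptbp2 and Msi1 lie above 0 on every day, whereas Elavl2 and Elavl4 move from near 0 at day 11 to -0.81 and -0.99 at day 27.

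The distance between IP and input changed with the day for 4 of the 10 members, Elavl2 (adjusted p = 0.021), Elavl3 (0.0090), Elavl4 (0.0080) and Nova1 (0.040; limma F test), against 37.4% of all genes. The count was 2 when the running library e of day 27 was left out of the input. The 4 of 10 members are near the 37.4% of all genes, so that count says little about the members. Without the day 18 libraries this F test called 136 of 17553 genes, against 7300 of 19507 with them. At day 11, 4 members were higher (Ptbp1, Ptbp2, Msi1 and Nova1) and Rbfox1 was lower, with 29.2% of all genes higher and 12.1% lower. At day 18, 6 members were higher (Ptbp1, Ptbp2, Msi1, Elavl3, Nova2 and Rbfox2) and 0 were lower, with 33% of all genes higher and 31% lower. At day 27, 4 members were higher (Ptbp1, Ptbp2, Msi1 and Nova2) and 3 were lower (Elavl2, Elavl4 and Rbfox1), with 34.6% of all genes higher and 14.3% lower. The Ptbp2 and Nova2 calls of day 27 (adjusted p = 0.041 and 0.042) were near the threshold, and only 2 members were called higher when any of 7 of the 8 libraries of that day was left out, the exception being the running input library e. Nova1 was 0.68 ± 0.15 higher at day 11 (adjusted p = 0.00097) but 0.12 ± 0.15 at day 18 and 0.05 ± 0.15 at day 27, neither of which passed. Elavl3 was 0.48 ± 0.13 higher at day 18 (adjusted p = 0.0041), the day on which the input stood apart by its olfactory receptor level; the part of that level in the result was not tested.

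Within the IP, Elavl2 and Elavl4 fell with time. Elavl4 had a TPM of 21.4 and 31.0 in the running and 29.6 and 24.8 in the sedentary libraries at day 11. It had 17.7 and 18.2 in the running and 19.2 and 14.4 in the sedentary libraries at day 18 and 13.6 and 15.2 in the running and 12.2 and 14.4 in the sedentary libraries at day 27. All 4 libraries of day 27 lay below all 4 of day 11. The share of all genes without overlap between these days is not given. The log2 difference of day 27 from day 11 was -0.89 ± 0.15 (limma over the 12 IP libraries, adjusted p = 0.0019). Elavl2 had a TPM of 28.6 and 41.8 in the running and 40.2 and 28.6 in the sedentary libraries at day 11 and 18.9 and 18.9 in the running and 17.5 and 19.2 in the sedentary libraries at day 27, again without overlap (-0.85 ± 0.16, adjusted p = 0.0033). In the input neither gene passed between these days (Elavl2 0.02 ± 0.18, adjusted p = 0.97; Elavl4 0.11 ± 0.17, adjusted p = 0.82). Without both letter a libraries of day 11 the IP differences were -0.86 and -0.95 and still passed. Cell cycle markers were also lower at day 27 in the IP (13 of 15, with a median sum of 311 TPM against 527 TPM at day 11), and 8 of 11 mature granule neuron markers were higher. Their part in the fall was not tested.

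Nova2 and Rbfox1 moved the other way. Nova2 had a TPM of 38.3 and 62.6 in the running and 55.7 and 53.2 in the sedentary libraries at day 11 and 83.2 and 77.3 in the running and 68.9 and 63.5 in the sedentary libraries at day 27 (0.49 ± 0.14, adjusted p = 0.027). Rbfox1 had a TPM of 169.9 and 200.1 in the running and 203 and 190.4 in the sedentary libraries at day 11 and 327 and 288 in the running and 237 and 219.8 in the sedentary libraries at day 27 (0.47 ± 0.12, adjusted p = 0.014). Neither overlapped between the 2 days in the IP. For Nova2 the gap was narrow, from 62.65 TPM at day 11 to 63.5 TPM at day 27. The share of all genes without overlap is not given, so this only describes the 2 genes. In the input Rbfox1 was also higher at day 27 (399 to 428 TPM) than at day 11 (278 to 398 TPM), with a narrow gap from 397.99 to 399.34 TPM. At day 11 its letter a input libraries stood at 278 and 315 TPM. Nova2 averaged 57.2 and 56.6 TPM in the input of these days, and neither gene passed there. Without both letter a libraries of day 11 the IP differences were 0.33 for Nova2 (adjusted p = 0.17) and 0.44 for Rbfox1 (adjusted p = 0.10). Without the sedentary library e of day 27 they were 0.46 (adjusted p = 0.092) and 0.44 (adjusted p = 0.066). The Nova2 call was also lost without any other library of these days but the running library b of day 11, at adjusted p of 0.051 to 0.083. Under median-of-ratios scaling Rbfox1 no longer passed (0.33, adjusted p = 0.081), while falls of Ptbp1 (-0.40, adjusted p = 0.0096), Msi1 (-0.47, adjusted p = 0.010) and Nova1 (-0.47, adjusted p = 0.026) did. On the TPM as deposited those 3 differed by -0.26 ± 0.11, -0.32 ± 0.12 and -0.33 ± 0.16 and did not pass. In all, 2 members were higher and 2 lower at day 27 than at day 11, with 11.4% of the 17282 IP genes higher and 3.88% lower.

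At day 18 of the IP, Elavl4 (-0.58 ± 0.15, limma adjusted p = 0.040), Nova2 (0.57 ± 0.14, adjusted p = 0.026) and Rbfox1 (0.42 ± 0.12, adjusted p = 0.047) passed against day 11, while Elavl2 did not. Of all genes 4.56% were higher and 1.1% lower. Without limma's trend and robust options 0 members passed. These 3 calls rested on single libraries. Only 0 or 1 member passed when any of 9 of the 12 IP libraries was left out, the exceptions being the running libraries b, e and f. Without the running library b of day 11 Elavl4 did not pass either (-0.45, limma adjusted p = 0.056), while Elavl3 did (0.42, adjusted p = 0.030). Between days 27 and 18 no member passed (limma, 1 member at an unadjusted p under 0.05), with 0.122% of genes called. In the input, Elavl3 was lower at day 18 than at day 11 (-0.44 ± 0.14, adjusted p = 0.026) and higher at day 27 than at day 18 (0.54 ± 0.14, adjusted p = 0.019). No member passed at day 18 against day 11 without the sedentary library b of day 11 or either letter c library, and none at day 27 against day 18 without either letter c library, the running library e or either letter f library. Of all input genes, 37.8% were higher and 11.4% lower at day 18 than at day 11, and 10.4% were higher and 26.7% lower at day 27 than at day 18. No member passed between days 27 and 11 of the input (limma, 1 at an unadjusted p under 0.05), and neither did any gene (0%).

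**Figure D3:**
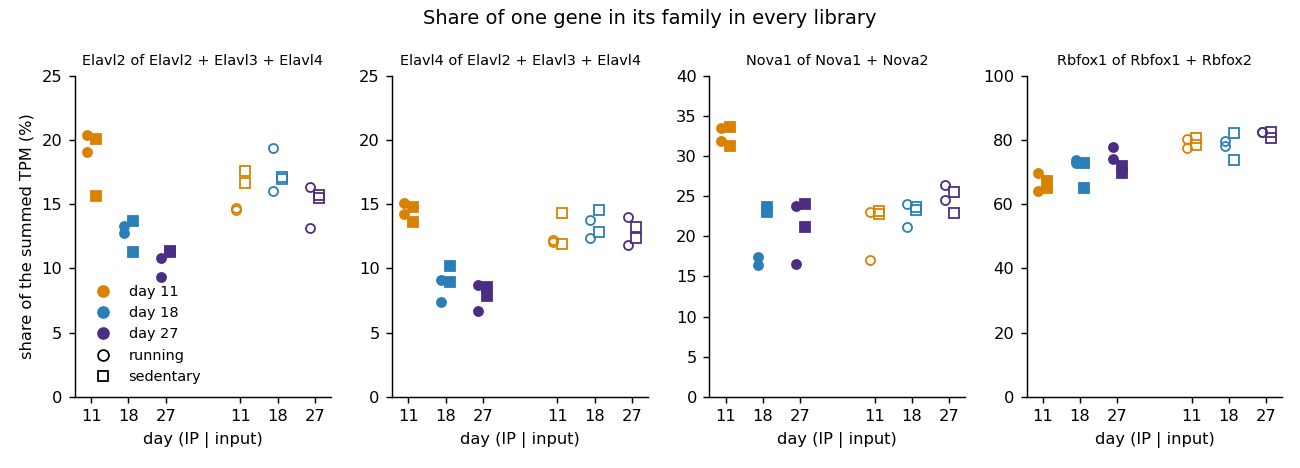
Share of the summed TPM (percent) taken by Elavl2 and Elavl4 within the Elavl genes, Nova1 within the Nova genes and Rbfox1 within the Rbfox genes, by day, with IP libraries filled and input libraries open. In the IP the Elavl2, Elavl4 and Nova1 shares are highest at day 11, whereas the input shares of Elavl2 and Elavl4 overlap between days.

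Shares within a family do not depend on the scaling of a library. In the IP, Elavl3 made up 66.8 ± 2.79% of the summed Elavl2, Elavl3 and Elavl4 TPM at day 11 (SD, n = 4), 78.4 ± 1.77% at day 18 and 81.3 ± 1.79% at day 27. The Elavl2 share went from 18.8 ± 2.16% to 12.7 ± 1.06% and 10.7 ± 0.952%, and the Elavl4 share from 14.4 ± 0.654% to 8.89 ± 1.13% and 7.96 ± 0.918%. In the input the Elavl3 share was 71.5 ± 2.45%, 69.3 ± 2.03% and 72.0 ± 2.34%. Nova1 made up 32.6 ± 1.15% of the Nova sum in the IP at day 11, 20.1 ± 3.75% at day 18 and 21.4 ± 3.47% at day 27, against 21.5 ± 2.93%, 23.0 ± 1.32% and 24.8 ± 1.49% in the input. The Nova1 to Nova2 ratio in the IP was 0.93 lower on the log2 scale at day 18 than at day 11 and 0.82 lower at day 27. Neither pair of days overlapped, and the two-sided exact permutation p was 0.0286 for each, the smallest that 70 relabellings allow (adjusted p = 0.129 over 27 ratio tests). Rbfox1 made up 70.4 ± 4.28% of the Rbfox sum in the IP and 79.9 ± 2.63% in the input (SD, n = 12). Its ratio to Rbfox2 was 0.74 lower in the IP on the log2 scale (two-sided exact permutation p = 4.29e-05, the smallest that 46656 relabellings allow; adjusted p = 0.00116). At day 27 the Rbfox1 to Rbfox2 ratio was higher than at day 11 in both fractions, by 0.48 in the IP and 0.26 in the input. Neither overlapped between these days, and neither passed (exact permutation p = 0.0286, adjusted p = 0.129 for each). In the input the gap was very narrow, from a ratio of 4.152 at day 11 to 4.153 at day 27.

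**Figure D4:**
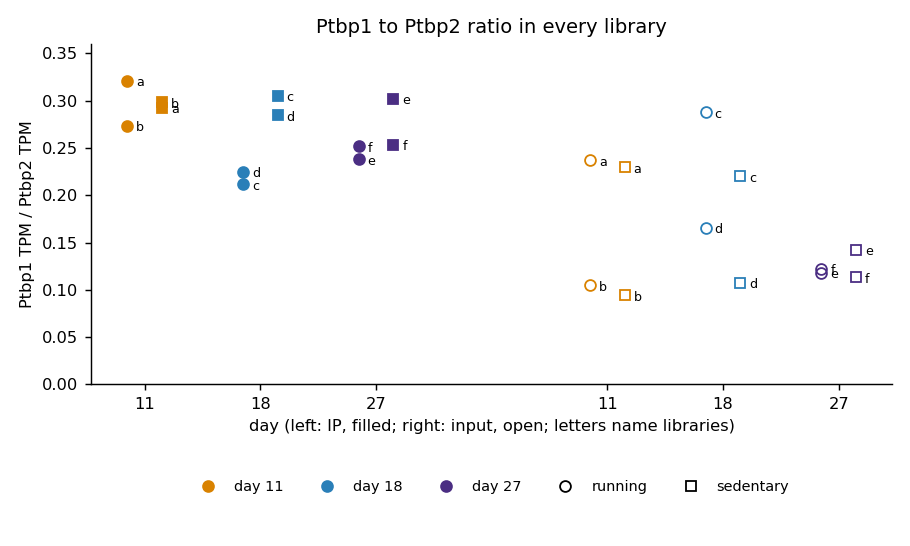
Ptbp1 TPM divided by Ptbp2 TPM in every library, by day, for IP (filled) and input (open), with the letter that names each library. The IP libraries lie between 0.212 and 0.321, the letter a and c input libraries between 0.220 and 0.288 and the other 8 input libraries between 0.0943 and 0.165.

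Ptbp2 exceeded Ptbp1 in every library of both fractions. The Ptbp1 to Ptbp2 ratio in the IP was 0.321 and 0.274 in the running and 0.293 and 0.298 in the sedentary libraries at day 11, 0.212 and 0.225 in the running and 0.305 and 0.285 in the sedentary libraries at day 18 and 0.238 and 0.252 in the running and 0.302 and 0.254 in the sedentary libraries at day 27. In the input it was 0.237 and 0.105 in the running and 0.229 and 0.0943 in the sedentary libraries at day 11, 0.288 and 0.165 in the running and 0.220 and 0.107 in the sedentary libraries at day 18 and 0.118 and 0.122 in the running and 0.142 and 0.113 in the sedentary libraries at day 27. The mean ratio was 0.271 ± 0.0349 in the IP and 0.162 ± 0.0650 in the input (SD, n = 12). The ratio was higher in the IP library than in the input library of the same name in 11 of 12 cases. The mean log2 ratio was 0.78 higher in the IP (two-sided exact permutation p = 0.000600, adjusted p = 0.0081), although the ranges overlapped. In the letter a and c input libraries Ptbp2 was 72.8 to 87.9 TPM, against 97.5 to 124 TPM in the other input libraries. Ptbp1 was 16.9 to 20.9 against 11.1 to 17.55 TPM, and Rbfox1 247 to 315 against 307 to 428 TPM. The same libraries enter the IP and input comparisons of these genes above. The ratio of the input libraries thus split by letter, with a and c at a median of 0.233 and b, d, e and f at 0.116. Without the letter a and c input libraries the difference was 1.12 (adjusted p = 0.0046), and without the letter a IP libraries of day 11 it was 0.76 and did not pass with fewer libraries (adjusted p = 0.071).

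Between days the ratio did not pass in either fraction. Its largest difference was in the input, a log2 change of -0.56 from day 18 to day 27 (exact permutation p = 0.143), which was -0.11 without the letter a and c input libraries. The input of day 18 was 0.25 higher than that of day 11 (exact permutation p = 0.629). In the IP it was 0.22 lower at day 18 than at day 11 on the log2 scale (exact permutation p = 0.20) and 0.18 lower at day 27 (exact permutation p = 0.114). In the input it was 0.30 lower at day 27 than at day 11 (exact permutation p = 0.429), but 0.29 higher without the letter a and c input libraries.

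Running against sedentary asked whether voluntary exercise changed these genes. No member passed in the IP as the mean of the 3 days (limma, 1 of 10 at an unadjusted p under 0.05), with 0.00579% of 17282 genes called. No member passed in the input either (0 at an unadjusted p under 0.05), with 0% of 20462 genes called. The running effect in the IP minus that in the input gave 0 members and 0% of genes. Within single days the members called were 0 throughout, with 0%, 0% and 0.0289% of genes called in the IP at days 11, 18 and 27, and 0%, 0.00977% and 0% in the input. In the IP 1 member, Rbfox1, reached an unadjusted p under 0.05 at day 27 and 0 at the other days, and in the input 0 did on any day. The labels leave unsaid whether each library is a different mouse, so the spread behind these p-values may be technical.

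Rbfox1 and Ptbp1 had the lowest unadjusted p of the 10 members for running in the IP. Rbfox1 in the IP was 169.9 and 200.1 TPM in running and 203 and 190.4 TPM in sedentary libraries at day 11, 299 and 272 against 207 and 249 TPM at day 18, and 327 and 288 against 237 and 219.8 TPM at day 27. The groups, of 2 libraries each, did not overlap at days 18 and 27, and running was higher in 5 of 6 letters. Such a lack of overlap held for 8 of 10 members at day 18 and 4 of 10 at day 27, with 0 called on either day. The share of all genes without overlap is not given, so these counts only describe the members. The mean difference was 0.22 ± 0.09 (95% interval 0.02 to 0.42, adjusted p = 0.32). Ptbp1 in the IP was 41.8 and 50.3 TPM in running and 52.2 and 50.5 TPM in sedentary libraries at day 11, 41.2 and 39.0 against 50.9 and 42.7 TPM at day 18, and 38.0 and 39.7 against 43.0 and 41.0 TPM at day 27. Running was lower in 6 of 6 letters, by a mean of -0.16 ± 0.09 (95% interval -0.35 to 0.03, adjusted p = 0.41). The other members differed by -0.09 (Nova1) to 0.16 (Nova2), with Msi1, Rbfox2, Ptbp2, Elavl4, Elavl3 and Elavl2 at -0.06, -0.03, 0.04, 0.05, 0.14 and 0.15. In the input the members differed by -0.21 (Elavl2) to 0.06 (Ptbp1).

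The Ptbp1 to Ptbp2 ratio in the IP was 0.253 ± 0.0393 in running and 0.289 ± 0.0190 in sedentary libraries (SD, n = 6). The log2 difference of -0.20 did not pass (two-sided exact permutation p = 0.0833 over 216 relabellings within days, adjusted p = 0.21), and without the day 18 libraries it was -0.084 (adjusted p = 0.68). The ratio was lower in the running library of 5 of 6 letters. The groups, of 2 libraries each, did not overlap at days 18 and 27, when 8 and 4 of the 10 members did not overlap either. The share of all genes without overlap is not given, so this only describes the ratio. In the input the difference was 0.17 (exact permutation p = 0.583), with running higher in 5 of 6 letters, and 0.016 without the day 18 libraries.

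Other splicing regulators give the setting. Of 21 further neural RNA-binding regulators tested, 8 were higher in the IP and 7 lower (limma adjusted p under 0.05; median 0.07, all genes 0.12), close to the 41.4% and 28.5% of all genes called. The same shares stand beside the counts of the lists that follow. Among the neural regulators Srrm4, which drives neuronal microexons, was 0.80 higher, the Ptbp1 partners Raver2 and Raver1 were 0.82 and 0.74 higher, and Ptbp3, a Ptbp1 paralog, differed by -0.77. SR splicing factors were mostly higher, 12 of 13 with 1 lower (median 0.71), led by Srsf6 (1.03), Srsf7 (0.98), Srsf2 (0.95) and Srsf11 (1.03). Of 20 hnRNP genes 14 were higher and 2 lower (median 0.49), among them Hnrnpl (0.78), Hnrnph1 (0.79), Hnrnpa2b1 (0.70) and Hnrnpul1 (0.48). Of 24 core spliceosome genes 16 were higher and 3 lower (median 0.38), with Sf3b1 at 1.68, Sf3b3 at 0.98, Snrnp200 at 0.76 and Sf3a2 at 0.80. Under median-of-ratios scaling the counts were 11 higher and 1 lower for SR factors, 10 and 4 for hnRNP genes, 8 and 6 for the core spliceosome and 5 and 10 for the neural regulators. Of 8 genes around REST and miR-124, 6 were higher and 1 lower. The host transcript A930011O12Rik was 1.35 higher, the REST corepressor Rcor1 0.71 higher and the phosphatase Ctdsp2 0.67 higher, while Dlg4, a postsynaptic scaffold whose transcript is a target of Ptbp proteins, differed by -0.83.

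Day 27 against day 11 of the IP called 4 of 21 further neural regulators higher and 1 lower, while 11.4% of all IP genes were higher and 3.88% lower. Rbfox3 (the neuronal nuclear antigen NeuN) rose by 0.57, Celf3 by 0.53, Celf5 by 0.48 and Mbnl2 by 0.30, and Khdrbs3 fell by 0.82 (limma, adjusted p of 0.0039, 0.0042, 0.030, 0.047 and 0.0033). Core spliceosome genes fell in 7 of 24 cases and rose in 0 (median -0.07, all genes 0.15). For running as the mean of days, 0 genes of these 5 lists passed in either fraction, and 20 of 86 in the IP and 4 of 87 in the input had an unadjusted p under 0.05, against 14.2% and 4.19% of all genes.

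Among the 11758 genes compared over the 12 IP libraries, those most like Ptbp1 in log2(TPM + 1) were Prdx6 (Pearson r = 0.94), Sema3a, Pla2g7, Rftn2 and Wnt8b. Most like Ptbp2 were Zkscan1 (r = 0.95), Sestd1, Cdh2, Ssbp3 and Dcc. Most like Msi1 were Draxin (r = 0.93), Zfp703, Neurog2, Maged2 and Tle3, and most like Nova2 were Mn1 (r = 0.98), Brsk2, Gcn1l1, Cstf2t and Kat2a. Elavl2 and Elavl4 correlated with each other at r = 0.95, and Nova2 with Elavl3 at r = 0.93. These are descriptions over libraries that share a day and an activity in pairs.

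In GENCODE M21 (GRCm38), Ptbp1 lies on chromosome 10 at 79854427 to 79864771 (plus strand), Ptbp2 on chromosome 3 at 119718742 to 119784466 (minus strand), Elavl2 on chromosome 4 at 91250763 to 91400785 (minus strand) and Elavl4 on chromosome 4 at 110203722 to 110351909 (minus strand). No 50-base window of a member was shared with a paralog in this set of genes. Ptbp1 shared 4.75% of its windows with the gene model Gm4900, Elavl3 207 of 6936 windows with Gm49318, and Nova1 261 of 8694 windows with Gm33869. Nova2 overlaps the antisense model Gm26821 over 31.7% of its exon bases. Ptbp1 overlaps the opposite-strand models Gm17134 (9.22% of its exon bases), E130317F20Rik (6.22%) and Plppr3 (5.30%). Reads from both strands cannot be told apart if the counting ignored strand, which no source used here states.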

How the data were processed

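RNA was measured in 24 libraries of mouse dentate gyrus, 12 from ribosome precipitates and 12 from input, made with a SMARTer stranded total RNA kit. The authors deposited 1 table of TPM, which is scaled by transcript length and to a common library total, for 23306 genes, made with RSEM on mm10 per the submitters' processing notes. No source used here states the RSEM version, the annotation, the read aligner or whether counting used strand. TPM keeps no depth, so read counts and counting intervals are unknown. Libraries were grouped from the labels. Genes with a mean of at least 1 TPM were tested on log2(TPM + 1) with limma 3.58.1 (R 4.3.3; trend and robust options, Benjamini-Hochberg adjustment over all genes, threshold 0.05), in fits over all 24, the 12 IP or the 12 input libraries; ratios were tested by two-sided exact permutation within strata (Python 3.11.15, numpy 2.4.6, pandas 2.3.3, scipy 1.17.1). The procedure was tested on simulated data. All 10 members are named, with the 4 genes of lowest p in each further list and the 5 genes most like Ptbp1, Ptbp2, Msi1 and Nova2 (mean IP of at least 5 TPM); Mbnl2 was added after its value was seen. The members and lists were chosen with earlier results of these data known. Alternatives were the pseudocount (0.1), the filter, median-of-ratios scaling, limma's options, a library-letter block and leaving out libraries or day 18; leaving out both letter a IP libraries of day 11, or the letter a and c input libraries, was chosen after seeing the data.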

Additional observations from a re-analysis of the deposited data

Results flagged for a closer look

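Of 110 sets of 4 to 10 libraries checked, 6 held a library far from the others, and chance alone marks about 1 set in 20. In the IP of day 11, the running library a was low for Elavl3 (100.07 TPM, the other 3 at 128.85 to 132.27 TPM) and for Msi1 (52.57 TPM, the others at 71.95 to 72.63 TPM). It was also the lowest of that day for every other member except Elavl2, so this was not particular to Elavl3 and Msi1. Without both letter a IP libraries of day 11, the median of all genes at day 18 against day 11 went from 0.109 to -0.0045. What set the library apart was not tested. In the IP of day 27, Elavl2 was low in the sedentary library e (17.47 TPM, the others at 18.89 to 19.17 TPM). Among the running IP libraries, Ptbp1 was high in library b of day 11 (50.28 TPM, the others at 38.05 to 41.77 TPM). In the input, Elavl4 was low in the running library f of day 27 (24.40 TPM, the others at 29.27 to 30.10 TPM) and Msi1 in the running library d of day 18 (20.69 TPM, the others at 27.38 to 27.84 TPM). The difference between IP and input varied among the days for Elavl2, Elavl3, Elavl4 and Nova1 (limma F test, adjusted p of 0.0208, 0.00896, 0.00803 and 0.0402). Of all genes 37.4% were called by this test, so such a result was common.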

How the results depend on the processing

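Of 457 alternative counts of members, 356 equalled the count reported and 408 were within 1.5 times of it; of 120 alternative ratio differences, 113 kept their direction and their side of the threshold. The tally of counts includes comparisons with 0 members in every alternative, such as running, which raises the number that stayed equal. Without day 18, 4 members were higher in the IP in place of 6, a change that the tally takes as within 1.5 times. Counts of members were 3 higher in the IP under median-of-ratios scaling, with 3 lower at day 11, 3 higher and 2 lower at day 18, and 2 higher and 5 lower at day 27. Day 27 also gave 2 higher without limma's trend and robust options. Without the letter a and c input libraries 2 were lower at day 11 and 2 at day 18. Day 18 against day 11 in the IP gave 1 member without the filter, and 0 without limma's options or without the letter a IP libraries of day 11, where day 27 against day 11 gave 2. In the input, day 18 against day 11 gave 2 under median-of-ratios scaling and 2 without the letter a and c libraries. The causes were not tested.

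What the library letters mark is not stated, and they were not taken as pairs because the correlations of same-letter deviations did not all exceed 0.1. For running and sedentary libraries these were 0.24, 0.05 and 0.07 in the IP and 0.26, 0.09 and 0.08 in the input at days 11, 18 and 27, all positive, and for IP and input libraries they ran from -0.28 to -0.0083. With the letter as a replicate block, 4 members were higher and 3 lower in the IP, 2 were higher at day 27, and 0 passed for running, where 440 of all IP genes were called against 1 without it. The Ptbp1 to Ptbp2 difference under this block was 0.78 between IP and input (exact p = 0.00293).

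The Ptbp1 to Ptbp2 ratio differed between IP and input by 0.76 without the letter a IP libraries of day 11, and in the input by 0.29 between days 27 and 11 without the letter a and c libraries. Leaving out 1 library at a time gave 2 to 5 members that differed among days, 1 to 2 lower at day 11, 0 to 1 lower at day 18, 2 to 4 higher at day 27, 0 to 3 and 2 to 4 called in the IP at days 18 and 27 against 11, and in the input 0 to 2 (day 18 against 11) and 0 to 3 (day 27 against 18). The ratio then ranged from -0.048 to 0.13 for days 27 against 18 in the IP and from -0.034 to 0.38 for running in the input.

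Some members' differences changed sign. Between IP and input, Elavl3 was -0.27, Nova2 -0.072 and Rbfox2 -0.11 under median-of-ratios scaling, and Elavl3 -0.22 without day 18, -0.097 without the letter a and c input libraries and -0.020 to 0.047 over single libraries. For running in the IP, Rbfox2 was 0.042 and Msi1 0.0032 under median-of-ratios scaling; Nova1 was 0.038, Rbfox2 0.064 and Msi1 0.010 without the letter a IP libraries of day 11; Ptbp2 was -0.052 without day 18. For running in the input, Nova2 was 0.049, Rbfox1 0.0046 and Ptbp1 -0.078 without day 18, and Msi1 -0.093 without the letter a and c libraries. For day 18 against 11 in the IP, Rbfox2 was -0.021 and Ptbp2 -0.065 under median-of-ratios scaling, and -0.059 and -0.050 without the letter a IP libraries of day 11. Over single libraries, running in the IP ranged from -0.038 to 0.13 (Elavl4), -0.19 to 0.0027 (Nova1), -0.12 to 0.072 (Rbfox2), -0.045 to 0.12 (Ptbp2) and -0.14 to 0.0099 (Msi1), and in the input from -0.14 to 0.031 (Nova2), -0.19 to 0.068 (Rbfox1), -0.086 to 0.20 (Ptbp1) and -0.047 to 0.11 (Msi1). Day 27 against 11 in the IP ranged from -0.15 to 0.14 (Rbfox2) and -0.20 to 0.045 (Ptbp2), and day 18 against 11 from -0.048 to 0.24 (Rbfox2), -0.068 to 0.18 (Ptbp2) and -0.21 to 0.014 (Msi1).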

Other observations

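Spliceosome and hnRNP genes that fell in the IP between days 11 and 27 included several small nuclear ribonucleoprotein subunits. Snrpd1 was 83.5 TPM at day 27 and 184 TPM at day 11 (limma, -1.10 ± 0.24, adjusted p = 0.013), Snrpe 56.7 and 97.6 TPM (-0.77 ± 0.19, adjusted p = 0.020) and Snrpb2 32.0 and 53.1 TPM (-0.72 ± 0.18, adjusted p = 0.016), without overlap between the days. The share of all genes without overlap is not given. Sf3b1, a subunit that recognises the branch point, went from 527 to 379 TPM (-0.48 ± 0.12, adjusted p = 0.015). Of the hnRNP genes, Hnrnph3 (-0.49 ± 0.12, adjusted p = 0.012) and Hnrnpk (-0.59 ± 0.15, adjusted p = 0.017) fell and none rose. Dlg4 rose over the same days, from 232 to 360.4 TPM (0.62 ± 0.12, adjusted p = 0.0032). Cell cycle markers fell in 13 of 15 cases over these days, and their part in these values was not tested.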
